A study of Mus musculus with 3 samples.

Results

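The dividing epithelial cells of a YAP5SA stomach were 413 cells of 1 single-cell library, selected on their own transcripts from 1631 epithelial cells of that library and 22870 cells in the whole series. The study sequenced single cells of the glandular hindstomach of mouse embryos at embryonic day 18.5 (E18.5) in 3 genotypes, with 1 library each. The control carried Shh-Cre alone, the YAP5SA library carried Shh-Cre with YAP5SA, and the Yap knockout library carried Shh-Cre with floxed Yap alleles, so all 3 share Shh-Cre. Shh-Cre is a recombinase driven from the Shh locus, which is active in gut epithelium, and YAP5SA is a form of the coactivator YAP that resists inhibitory phosphorylation. The number, sex and litters of the embryos behind each library are not given in the sources used here. How many of the cells had recombined was not measured.

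A cell was taken as epithelial when it had at least 500 detected genes, at most 20% of its unique molecular identifiers (UMIs, 1 per captured transcript) from mitochondrial genes, at least 2 of Epcam, Cldn7, Cdh1, Cldn4 and Cldn3, and at least 0.3% of UMIs from the simple keratins Krt8, Krt18 and Krt19. Cells with 3 or more of 7 stratified squamous genes (Krt5, Krt13, Krt14, Krt15, Krt6a, Cnfn, Trp63) were left out. The 413 dividing cells were those with at least 4 of 10 genes of mitosis detected: Mki67, Top2a, Ccnb1, Ccnb2, Cdk1, Birc5, Aurkb, Cenpf, Ube2c and Tpx2. They are set against the 382 cells of the same gate with none of the 10, called 0-marker cells here. The remaining 836 cells held 1 to 3 of the genes. The gate fixes the epithelial genes, which are given as a description: the simple keratins took a median of 0.994% of UMIs in the dividing cells, and Epcam, an epithelial adhesion protein, stood at 391 CPM (the counts of a gene per 1000000 UMIs after pooling the cells of a class). Epcam stood at 341 CPM in 0-marker cells. Of epithelial transcription factor genes that the gate did not read, picked after their values were seen, Klf5 stood at 434 CPM in the dividing epithelial cells and 47.1 CPM in dividing fibroblasts of the same library, and Elf3 at 117 and 1.81 CPM. Yap1 stood at 52.7 CPM in dividing YAP5SA, 48.6 CPM in dividing control and 24.4 CPM in dividing Yap knockout cells. Tags at the 3′ end need not read a transgene or a floxed exon, so these values do not check the genotype labels.

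A dividing cell first licenses its replication origins with the MCM helicase, then copies its DNA in S phase with the help of enzymes that make nucleotides and of the sliding clamp PCNA. In G2 and mitosis it builds cyclin B with the kinase CDK1, condenses its chromosomes, attaches them to a spindle through kinetochores and splits. Factors of the E2F family switch on many S phase genes, and the MuvB complex with B-MYB and FOXM1 switches on many mitotic genes. Many mitotic promoters carry CCAAT boxes and a short cell cycle element called the CHR. In the gut epithelium, YAP works through TEAD factors and is known for its part in growth and regeneration.

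Promoter sequence is shown for the leading gene of the 10 that chose the cells, Ube2c, and for the replication gene with the largest ratio, Rrm2, because their windows differ in these elements. The windows run from 250 bases before to 50 after a transcript start and come from RefSeq on the GRCm38.p6 mouse assembly, matched by symbol. Capitals mark TTTGAA or TTCGAA (the core of a CHR), CCAAT, and the E2F letters GGCGGGAA or TTTGGCGC, on either strand. A match describes letters in the window and is not a bound site.
Ube2c (chr2:164769679-164769978, plus strand): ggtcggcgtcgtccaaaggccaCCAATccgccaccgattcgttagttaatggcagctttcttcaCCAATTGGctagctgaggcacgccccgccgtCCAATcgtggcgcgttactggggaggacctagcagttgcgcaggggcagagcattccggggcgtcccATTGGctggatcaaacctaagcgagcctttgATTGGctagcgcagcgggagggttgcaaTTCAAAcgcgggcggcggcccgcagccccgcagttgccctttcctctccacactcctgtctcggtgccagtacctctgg
Rrm2 (chr12:24708004-24708303, plus strand): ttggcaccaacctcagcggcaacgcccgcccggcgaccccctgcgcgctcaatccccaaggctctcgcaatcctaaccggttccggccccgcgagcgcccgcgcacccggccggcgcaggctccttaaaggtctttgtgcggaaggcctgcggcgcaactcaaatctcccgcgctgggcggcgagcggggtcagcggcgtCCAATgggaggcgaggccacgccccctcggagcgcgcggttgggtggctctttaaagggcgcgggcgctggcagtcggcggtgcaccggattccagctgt

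The Ube2c window held 6 CCAAT matches, a pair of which overlap, and 1 CHR core that begins 29 bases before the start. The Rrm2 window held 1 CCAAT match, 50 bases before the start, and none of the other motifs. Windows were found for 8 of the 10 genes that chose the cells, 34 of 42 replication genes and 54 of 62 mitosis genes outside the rule. A CHR core stood in 6 of 8 windows of the rule genes (75%), in 44 of 63 windows of the other mitosis genes (69.8%), in 8 of 41 windows of replication genes (19.5%) and in 19.2% of all 32851 windows. CCAAT stood in 87.5%, 73.0%, 61.0% and 37.4% of the same sets. The E2F letters stood in 0 of 8, 4 of 63 (6.35%) and 11 of 41 windows (26.8%), against 2.68% of all windows. The windows of Birc5 and Tk1 held none of the motifs.

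The dividing cells were deeper than the cells they are compared with. They held a median of 15141 UMIs (quartiles 9433 and 24006), against 3281.5 in 0-marker cells and 6972.5 in cells with 1 to 3 of the genes. The rule counts detected genes, so depth moves with it, and the part of depth in the differences below was not tested as a cause. With every cell thinned to 3000 UMIs, dividing cells had a median of 1568 detected genes (407 cells deep enough) and 0-marker cells 1508 (207 cells). Markers of other cell types were present in both classes. Fibroblast markers summed to 3343 CPM in dividing and 3482 CPM in 0-marker cells, smooth muscle markers to 2024 and 1882 CPM, erythroid markers to 7683 and 7527 CPM, and macrophage markers to 663 and 808 CPM. Squamous markers, which the gate limits, summed to 395 and 829 CPM and mesothelial markers to 92.8 and 160 CPM. At least 3 fibroblast markers were found in 98.3% of dividing and 73.0% of 0-marker cells, and in 71.7% and 70.0% after thinning. The highest 6% of doublet scores held 33 of the 413 dividing cells (7.99%) and 20 of the 382 0-marker cells (5.24%). They held 10.0% of cells with 1 to 3 of the genes, 12.6% with 3 and 12.5% with 4. The scoring called 0 doublets at its own threshold, so these shares do not show how many cells were doublets. The libraries held 65843658 (YAP5SA), 48910624 (control) and 40857358 UMIs (Yap knockout). Cell names are numbers within a library, and 2409, 1388 and 1528 of them recur in pairs of libraries, which does not show shared cells because the barcode sequences are not in the files.

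The YAP5SA library had a larger share of dividing epithelial cells than either other library. The share was 25.3% in YAP5SA (413 of 1631, 95% Clopper-Pearson interval 23.2 to 27.5), 12.1% in the control (45 of 373, 8.94 to 15.8) and 12.3% in the Yap knockout (61 of 494, 9.58 to 15.6). The median depth of the gated cells was 7111, 4979 and 6562.5 UMIs in the same order. With each gated cell thinned to 3000 UMIs before the 10 genes were counted, which dropped the shallower cells, the shares were 9.83% (128 of 1302, 8.27 to 11.6), 1.49% (4 of 268, 0.408 to 3.78) and 2.84% (11 of 388, 1.42 to 5.02). The YAP5SA share stood above the other libraries with and without thinning, and the control and Yap knockout intervals overlapped. With 1 library per genotype there is no test of this difference, and the intervals cover counting error only.

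A fibroblast gate took cells with at least 4 fibroblast markers, fewer than 3 macrophage markers and none of Epcam, Cldn7, Cdh1, Cldn4 and Cldn3. Of these, 6.96% divided in YAP5SA (100 of 1437, 5.70 to 8.40), 8.09% in the control (339 of 4189, 7.28 to 8.96) and 11% in the Yap knockout (109 of 989, 9.14 to 13.1). The first pair of intervals overlapped. After thinning the shares were 6.22%, 6.58% and 8.26%. Median depths in this gate were 3354, 4502 and 5979 UMIs in the same order, and the part of depth was not tested. A neuron gate took cells with at least 4 enteric neuron markers and none of the same epithelial genes. Most of these cells should have left the cell cycle, but they can include progenitors. The same count was met in 2 of 34 YAP5SA cells of this gate (5.88%, median 4738 UMIs), and in 1 of 25 (4%) after thinning. In the control and the Yap knockout the neuron gate gave 12% (20 of 166) and 11.7% (56 of 477), near the epithelial shares of those libraries. After thinning the neuron gate gave 2.68% (0.736 to 6.73) and 6.55% (4.36 to 9.39). These stood above the thinned epithelial shares of 1.49% and 2.84%, with overlapping intervals in both libraries.

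**Figure D1:**
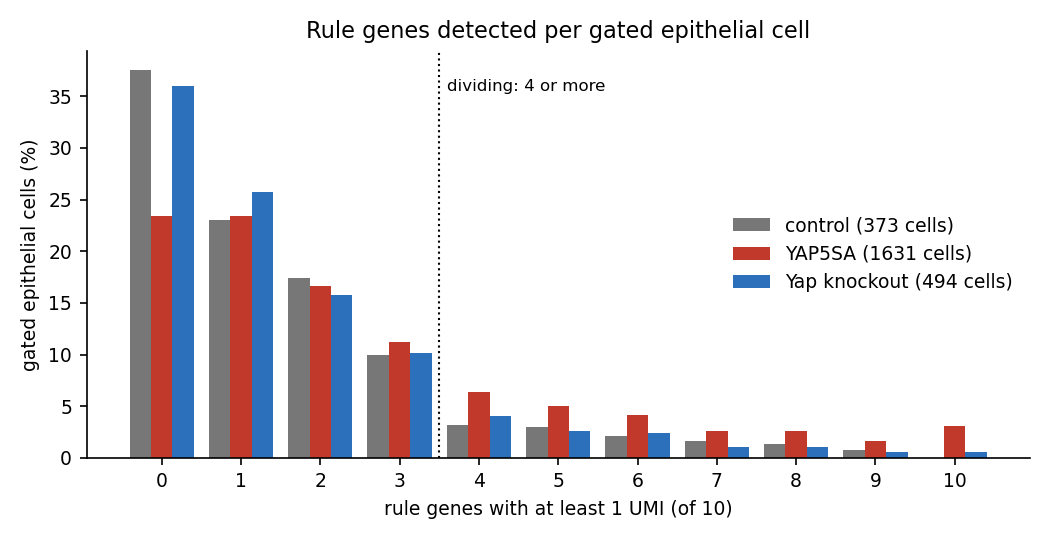
Share of gated epithelial cells (y, %) by how many of the 10 mitosis genes were detected (x, 0 to 10) in each of the 3 libraries; the dotted line marks the minimum of 4. In YAP5SA 50 cells held all 10 genes, against 0 control and 3 Yap knockout cells.

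The distribution of the 10 genes in YAP5SA had no gap at the minimum of 4. There were 183 cells with 3 of the genes, just outside, and 104 with 4, just inside, followed by 82 with 5, 67 with 6, 42 with 7, 42 with 8, 26 with 9 and 50 with all 10. The cells on either side of the minimum were alike in depth, at medians of 10158 UMIs (3 genes) and 12265.5 UMIs (4 genes). Replication genes summed to 1224 CPM in cells with 3 of the genes and 1715 CPM in cells with 4, and mitosis genes outside the rule to 912 and 1129 CPM.

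The genes that chose the cells are given as a description. Ube2c, which loads ubiquitin for the anaphase-promoting complex, was found in 86.0% of dividing cells and stood at 468 CPM, against 68.7 CPM in cells with 1 to 3 of the genes. After thinning it was found in 53.3% of dividing cells and 20% of the neuron gate. Birc5, or survivin, a member of the chromosomal passenger complex, stood at 204 CPM, and Cdk1, the mitotic kinase, at 193 CPM. Top2a, which untangles DNA, stood at 101 CPM and Mki67, the coat of mitotic chromosomes, at 92.2 CPM. The other 5 stood between 48.9 CPM for Cenpf and 80.2 CPM for Ccnb2. Thinned to 3000 UMIs, Cenpf was found in 11.3% of dividing cells and 4% of neuron gate cells, Mki67 in 23.3% and 8%, Top2a in 23.6% and 8%, Cdk1 in 38.1% and 8%, and Birc5 in 44.0% and 12%. The neuron values rest on 25 cells, and because the rule used these genes nothing is read from the differences.

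Over all genes, the count of differences between dividing and 0-marker YAP5SA cells changed with the processing. Of 3340 genes with at least 50 CPM in either class, the rule genes left out, 66 were at least 2-fold higher (1.98%) and 42 at least 2-fold lower (1.26%), on the log2 scale with 5 CPM added to each value. With gate and class both taken on cells thinned to 3000 UMIs, the counts were 167 and 74. This left 115 dividing and 493 0-marker cells. Among cells of like depth (207 dividing and 27 0-marker cells) the counts were 96 and 42. The part of depth in these counts was not tested. The rule used this contrast, so its counts are a description. Among the 66 higher genes, 12 were of the replication and repair lists (17 tested), 15 of the mitosis lists (15 tested) and 12 of the list of condensin, chromatin and tubulin genes (14 tested). Another 0 came from any other list (213 tested) and 27 from none (3081 tested). Genes such as Rrm2 passed 50 CPM in the dividing class alone, so they could only be called higher and these counts by list support nothing. Of the 42 lower genes, 21 belonged to other lists (213 tested) and 21 to none (3081 tested). The same contrast gave 72 higher (2.19%) and 138 lower genes (4.2%) of 3286 in the control, and 46 higher (1.4%) and 123 lower (3.74%) of 3291 in the Yap knockout, where the classes held fewer cells.

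Genes of DNA replication, none of them used by the rule, were higher in the dividing cells. Of 42 genes of licensing, nucleotide supply and fork, 41 had a log2 ratio above 0 and 1 below, with a median of 1.05 over all 42, beside −0.01 over all genes tested; 16 passed 50 CPM. Rrm2, the inducible subunit of ribonucleotide reductase, stood at 12.6 CPM in 0-marker cells, 31.5 CPM in cells with 1 to 3 of the genes and 105 CPM in dividing cells, 8.37-fold higher (95% Poisson interval 5.44 to 13.6). It was found in 56.4% of dividing and 4.71% of 0-marker cells, or 24.1% and 2.42% after thinning, against 0 of 25 thinned cells of the neuron gate (upper limit 13.7%). Tk1, thymidine kinase, stood at 26.9 and 145 CPM (5.40-fold, 4.01 to 7.45). Dut, which removes dUTP, stood at 47.8 and 189 CPM, and Tyms, thymidylate synthase, at 33.5 and 127 CPM. The clamp gene Pcna stood at 44.8 and 101 CPM (2.26-fold) and its loader subunit Rfc5 at 11.4 and 55.5 CPM.

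Origin licensing genes showed smaller ratios, with 16 of 17 above 0 and a median of 0.80. Gmnn, the licensing inhibitor geminin, stood at 13.8 CPM in 0-marker and 66.1 CPM in dividing cells (4.81-fold). Gins2, of the active helicase, stood at 20.3 and 67.9 CPM. The helicase subunits Mcm7, Mcm5 and Mcm2 stood at 92.0, 55.0 and 40.2 CPM in dividing cells, against 37.1, 27.5 and 24.5 CPM. Ratios and medians with thinned cells, here and below, took gate and class again on the thinned counts. Their classes held 115 dividing and 493 0-marker cells, so they are not the main classes at a lower depth. With these thinned cells the log2 ratio of Mcm5 was 0.06, with an interval from −0.98 to 1.00. Orc1, of the origin recognition complex, was the 1 gene below 0, at 10.8 and 9.89 CPM. Of 12 repair and checkpoint genes all were above 0 (median 0.80).

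Mitotic genes outside the rule had the largest ratios: 61 of 62 stood above 0 with a median of 1.61, and 15 passed 50 CPM. Plk1, a kinase of mitotic entry and spindle assembly, stood at 2.39 CPM in 0-marker cells (4 UMIs) and 71.4 CPM in dividing cells, 29.8-fold higher (11.6 to 110). Ccna2, the cyclin of S and G2 phase, stood at 9.57 and 99.2 CPM (10.4-fold, 6.34 to 18.2), and Cdc20, the activator of the anaphase-promoting complex, at 14.9 and 123 CPM (8.25-fold). Aurka, a centrosome kinase, stood at 5.98 and 55.0 CPM. At the centromere and kinetochore, 16 of 16 genes were above 0 (median 1.82), among them Cdca8, or borealin, at 17.3 and 133 CPM, Cenpa, the centromere histone, at 17.9 and 134 CPM, and Spc24 at 28.7 and 144 CPM. All 17 spindle genes (median 1.6) and all 9 cytokinesis genes (median 1.55) were above 0, mostly under 50 CPM. Pttg1, or securin, was the 1 mitosis gene below 0, at 17.3 and 14.8 CPM. The lists pointed the same way in dividing cells of other kinds: in control epithelium 40 of 42 replication genes (median 0.75) and 57 of 62 mitosis genes (1.33) were above 0, in Yap knockout epithelium 38 (0.58) and 60 (1.04), and in YAP5SA fibroblasts 41 (1.45) and 62 (2.57).

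All 17 condensin, chromatin and tubulin genes were above 0 (median 1.38), and 14 passed 50 CPM. Hmgb2, a chromatin protein of growing cells, stood at 141 CPM in 0-marker cells, 201 CPM in cells with 1 to 3 of the genes and 642 CPM in dividing cells (4.55-fold, 3.99 to 5.21). H2ax stood at 89.7, 117 and 360 CPM, and Tuba1b, an alpha tubulin, at 434, 561 and 1338 CPM. Outside every list, the highest ratios were those of Pclaf, a PCNA clamp factor, at 6.58 and 73.4 CPM (11.2-fold, 6.19 to 22.5), the linker histone H1f4 at 8.37 and 59.3 CPM, Cdca3 at 18.5 and 92.1 CPM, and Knstrn, a spindle and kinetochore protein, at 11.4 and 62 CPM. Below them came D17H6S56E-5, Lockd, Selenoh, Lsm2, the splicing factor Srsf3 (120 and 311 CPM) and Dnajc9. Genes near one another were not separated by strand, and Lockd, a transcript next to Cdkn1b, may share reads with its neighbours.

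**Figure D2:**
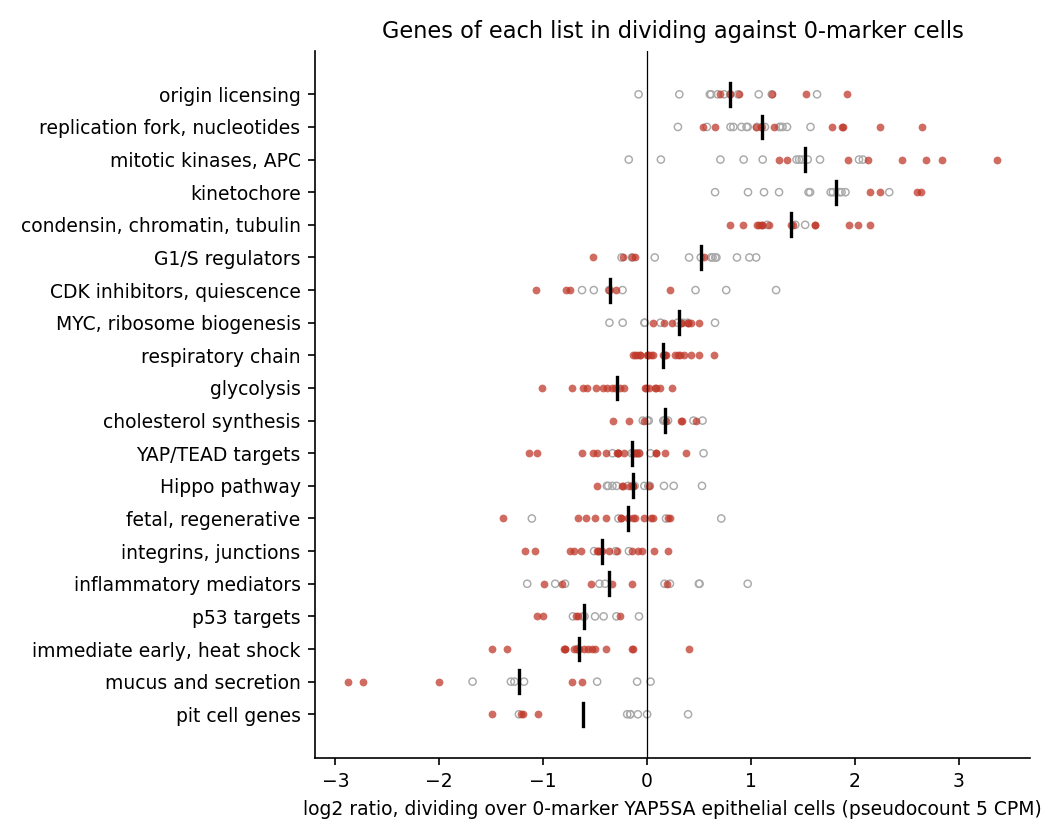
Log2 ratio of dividing over 0-marker YAP5SA cells (x, 5 CPM added) for each gene of each list (y); filled points have at least 50 CPM in either class, open points less, and black bars mark the median over all list members. Replication (median 1.05), mitosis (1.61) and chromatin (1.38) lie to the right, and p53 (−0.61) and mucus genes (−1.23) to the left.

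The genes that gate entry to S phase pointed in both directions. Of 17 G1/S cyclins, kinases and E2F factors, 11 were above 0 and 6 below, with a median of 0.52 over all and −0.15 over the 5 that passed 50 CPM. Cdk4, the G1 kinase, stood at 384 CPM in 0-marker and 565 CPM in dividing cells, and Ccne1, or cyclin E1, at 23.9 and 40.9 CPM. Ccnd2, or cyclin D2, stood lower, at 591 and 409 CPM. Ccnd1 (175 and 161 CPM) and E2f1 (30.5 and 27.1 CPM) were alike in both classes. Of 14 CDK inhibitors and quiescence genes, 4 were above 0 and 10 below (median −0.36). Cdkn1a, or p21, stood at 276 and 158 CPM, Cdkn2a, which encodes p16 and p19Arf, at 66.4 and 29.0 CPM, and Cdkn2b, or p15, at 51.4 and 28.7 CPM. Cdkn1c, or p57, stood at 632 and 736 CPM, and Cdkn1b, or p27, at 12 and 18.4 CPM. Cdkn2a had 0 UMIs in both control classes, so that in dividing cells it was at least 8.55-fold higher in YAP5SA against a floor of 3 UMIs.

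**Figure D3:**
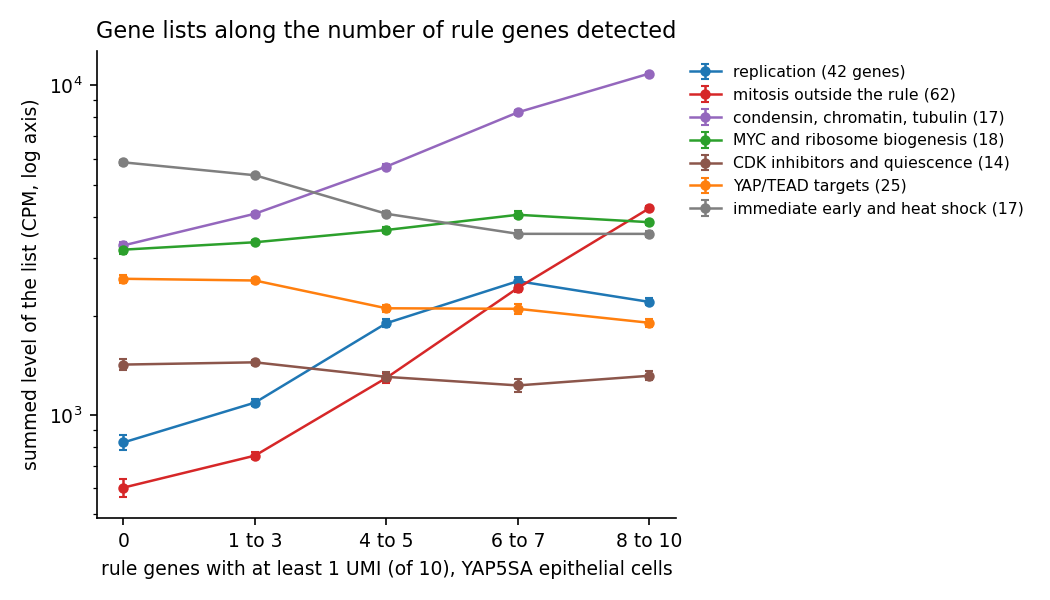
Summed CPM (y, log scale) of 7 gene lists in YAP5SA epithelial cells by the number of the 10 mitosis genes detected (x); error bars are 95% Poisson intervals, which cover counting error only. Mitosis genes outside the rule go from 603 CPM at 0 genes to 4239 CPM at 8 to 10, and replication genes peak at 2548 CPM at 6 to 7.

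Over all gated YAP5SA epithelial cells, replication and mitosis genes followed different courses along the number of rule genes. The rule genes are themselves genes of mitosis, so a rise of other mitosis genes along their number is a description. Across 0, 1 to 3, 4 to 5, 6 to 7 and 8 to 10 of the rule genes, replication genes summed to 826, 1091, 1900, 2548 and 2204 CPM, while mitosis genes outside the rule summed to 603, 754, 1297, 2430 and 4239 CPM. Depth moved with this order, at medians of 12523, 13064 and 22310 UMIs in the last 3 bins, and its part was not tested. Per dividing cell, medians of 24 UMIs of replication genes and 30 UMIs of mitosis genes were counted. The Spearman correlation of the 2 sums per 10000 UMIs was 0.27 over 413 cells, which share a library and a depth term. Cells with none of the rule genes also held both kinds of transcript, at 826 and 603 CPM. Holding both therefore does not by itself mark a cell as dividing. Some of the 413 cells stood below both of these pooled levels, and how many was not counted. The medians of the groups described below stood above them.

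**Figure D4:**
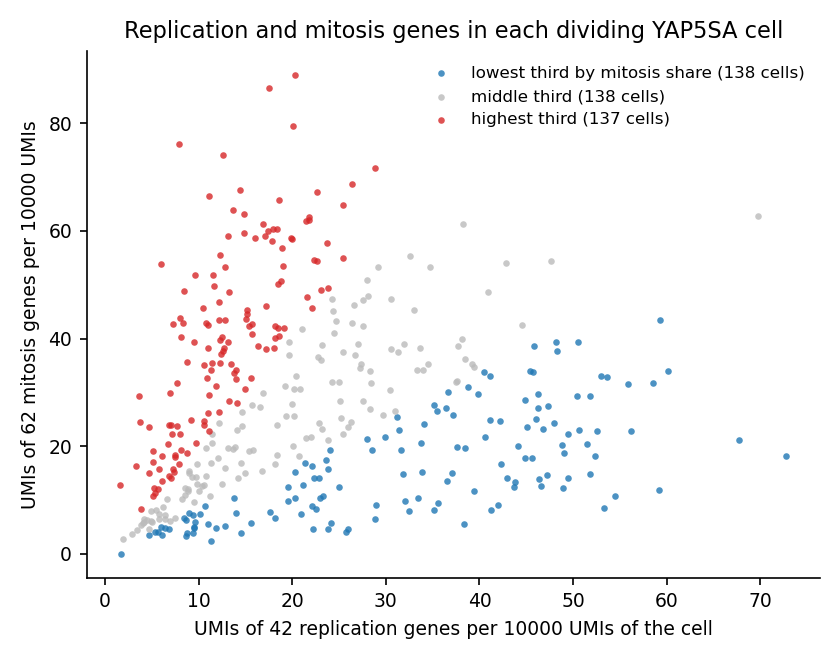
UMIs of 42 replication genes (x) and of 62 mitosis genes outside the rule (y) per 10000 UMIs, 1 point for each of the 413 dividing cells, coloured by the mitotic share of their summed UMIs. Nearly all cells hold both kinds of transcript, which by itself does not mark division. Medians go from 35.2 replication and 14.4 mitosis UMIs in the group of lowest mitotic share to 12.4 and 40.4 in the highest.

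The cells were ordered by the mitotic share of their replication and mitosis UMIs and cut into groups of 138, 138 and 137 cells, with shares of 0 to 45.8%, 46 to 66.7% and 66.7 to 90.6%. Median depths were 18005, 13814.5 and 14305 UMIs. Genes of both lists differ between these groups by construction. Pcna stood at 172, 83.6 and 40.8 CPM, Mcm5 at 96.4, 41.6 and 22.8 CPM, Cdc20 at 25.7, 74.4 and 274 CPM, and Plk1 at 14.4, 62.2 and 142 CPM from the lowest to the highest mitotic share. Of the genes the ordering did not use, Ccne1 stood at 83.2, 27.6 and 7.75 CPM (10.7-fold lower in the highest group, 6.71 to 18.2), and Ube2c, a rule gene, at 86.2, 321 and 1018 CPM. Over all list members, 17 of 17 condensin, chromatin and tubulin genes (median 0.60) and 16 of 16 cholesterol synthesis genes (median 0.33) had higher values with the highest share, of which 14 and 10 passed 50 CPM. Hmgcs1 stood at 105, 123 and 156 CPM and Sqle at 37.8, 38.5 and 60.4 CPM. The median over all genes was 0.00. YAP targets had a median of 0.02 (14 of 25 above 0) and fetal genes −0.04 (7 of 19). Ccn1 stood at 230, 360 and 230 CPM and Krt19 at 4945, 5082 and 4895 CPM. The globin gene Hba-a1, chosen after its values were seen, moved with the order, at 1317, 2595 and 4245 CPM, with 58.3% of its UMIs in 10 of the 413 cells, and its part was not tested.

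YAP targets were present in the dividing cells at levels near or below those of 0-marker cells. Of 25 targets, 6 were above 0 and 19 below (median −0.15), and 19 passed 50 CPM (median −0.28). Ajuba, an adaptor that inhibits the kinase LATS, stood at 64.6 CPM in 0-marker and 68.7 CPM in dividing cells, Amotl2, an angiomotin, at 101 and 95.6 CPM, and Tgfb2 at 94.5 and 124 CPM. Ccn2, a matricellular protein, stood at 253 and 118 CPM (2.14-fold lower, 1.90 to 2.40), F3, or tissue factor, at 203 and 89.7 CPM, and Ccn1 at 420 and 270 CPM. Ankrd1, a nuclear ankyrin repeat protein, stood at 117 and 87.8 CPM. Part of this changed in the alternatives for depth. Among cells of like depth, which left 207 dividing and 27 0-marker cells, the median of passing targets was −0.04. There Ccn1 had a log2 ratio of 0.21, Ankrd1 1.13 and Ccn2 −0.85. With gate and class both on cells thinned to 3000 UMIs, the median was −0.24 and Ankrd1 had 0.26. Of 20 Hippo pathway components, 6 were above 0 and 14 below (median −0.14). Wwtr1, the YAP paralogue TAZ, stood at 111 and 93.3 CPM, and Tead4 at 47.8 and 35.8 CPM.

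Genes of fetal and regenerative epithelium had a median of −0.18, with 6 of 19 above 0. Anxa8, an annexin, stood at 163 CPM in 0-marker and 192 CPM in dividing cells, and Cldn6, a fetal claudin, at 127 and 146 CPM. Ly6a, or Sca-1, stood at 5.98 and 13.0 CPM. Msln, a surface glycoprotein, was found in 403 of 413 dividing cells (97.6%) and 330 of 382 0-marker cells (86.4%), at 1128 and 1786 CPM. Sprr1a, a cornified envelope protein, stood at 438 and 1151 CPM. Clu, or clusterin, stood at 1160 and 1741 CPM, a direction that flipped with thinned cells, to a log2 ratio of 0.20, and among cells of like depth, to 0.15.

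Growth genes were somewhat higher in dividing cells: 14 of 18 MYC and ribosome biogenesis genes were above 0 (median 0.31). Npm1, or nucleophosmin, stood at 610 and 817 CPM, Nop58 at 117 and 166 CPM, and Odc1, of polyamine synthesis, at 165 and 218 CPM, while Myc itself stood at 43.1 and 32.4 CPM. The median was 0.17 for cholesterol synthesis (12 of 16 above 0) and 0.15 for the respiratory chain (15 of 21). Glycolysis genes had a median of −0.29, with 5 of 18 above 0. The glucose transporter gene Slc2a1 stood at 897 and 442 CPM (2.03-fold lower, 1.91 to 2.16), whereas Slc2a3 stood at 267 and 264 CPM and Pgk1 at 520 and 615 CPM.

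All 12 p53 target genes of the list were below 0 (median −0.61), among them the apoptosis genes Pmaip1 (102 and 46.6 CPM) and Bbc3 (52.0 and 23.4 CPM), and 5 passed 50 CPM. The same contrast went the other way in the control, with 10 above 0 and 2 below (median 0.11). In the Yap knockout 3 were above 0 and 8 below (median −0.23). Immediate early and heat shock genes, which respond to tissue dissociation, were below 0 in 16 of 17 (median −0.65). Hspa1a stood at 127 CPM in 0-marker and 41.9 CPM in dividing cells, Fos at 363 and 226 CPM, and Hsp90aa1, the exception, at 268 and 357 CPM. Their median among passing genes was −0.63, and −0.19 among cells of like depth. Nupr1, a stress-induced chromatin protein, was the lowest gene outside the lists, at 668, 305 and 156 CPM from 0-marker to dividing cells (4.29-fold, 3.95 to 4.66), although 10 cells held 56.8% of its UMIs in the 0-marker class. H2ac19, Ecm1, Krt17, Anxa10, Qsox1, Ndufa4l2, Serpinb9b, Krt23 and Sgk1 followed. Sgk1 stood at 93.3 and 38.1 CPM, with a log2 ratio of 0.27 in the other direction among cells of like depth.

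Adhesion genes were below 0 in 17 of 19 (median −0.43). Cldn4, a tight junction claudin that the gate also reads, stood at 636 and 279 CPM, and Itgb4, of hemidesmosomes, at 133 and 60.3 CPM. The median of the 16 passing genes was −0.45, but −0.03 with thinned cells and 0.07 among cells of like depth. The keratins of the gate stood at 4627 and 3043 CPM (Krt8), 5371 and 2479 CPM (Krt18) and 6877 and 4971 CPM (Krt19). The Wnt ligand genes Wnt7b (128 and 74.2 CPM) and Wnt4 (325 and 173 CPM) were lower in dividing cells, and Wnt7b turned to 0.49 (log2) among cells of like depth. The neutrophil chemokine gene Cxcl2 stood at 431 and 214 CPM, and Lcn2, an iron-binding protein of inflamed epithelium, at 198 and 227 CPM, a direction that flipped with thinned cells (−0.76).

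By number of genes, products of differentiated gastric cells were mostly lower, with 29 of 40 below 0 and 8 above (median −0.48 over the 37 with UMIs). Their sum, most of it Cym, was not lower, at 25915 CPM in 0-marker and 28100 CPM in dividing cells. Parietal genes were split, with 4 above 0 and 4 below (226 and 224 CPM in sum). The mucus and secretory list was below 0 in 11 of 12 (median −1.23). A few cells carried much of this. Pga5, a pepsinogen, stood at 779 CPM in 0-marker and 27.2 CPM in dividing cells, and 10 of the 382 0-marker cells held 92.3% of its 1303 UMIs. In dividing cells 10 of 413 held 41.3% of 201 UMIs, 46 of them in 1 cell, and the neuron gate of the same library had Pga5 at 25.5 CPM. For Agr2, a mucin folding factor, 10 cells held 97.6% of the 85 UMIs of 0-marker cells (50.8 and 2.57 CPM), and for ghrelin (Ghrl, 70.0 and 1.35 CPM) 1 cell held 115 of 117 UMIs. Tff1, the surface mucous trefoil peptide, stood at 158 and 53 CPM, against 10.2 CPM in the neuron gate. Cym, the milk-clotting protease chymosin of young stomachs, was different: all 413 dividing cells had it, at 26999 CPM, against 22708 CPM in 0-marker cells and 1092 CPM in the neuron gate, and the 10 highest dividing cells held 12% of its UMIs.

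The same class was compared between libraries to see where dividing YAP5SA cells differ from dividing control cells (45 cells). Of 3486 genes, 402 were at least 2-fold higher (11.5%) and 261 at least 2-fold lower (7.49%) in YAP5SA, and the median of all genes was 0.15. With ratios centred on that median the counts were 286 higher and 347 lower, so which direction held more genes depended on the scaling. In 0-marker cells the counts were 486 higher (13.2%) and 346 lower (9.43%) of 3670, with a median of 0.12. Both comparisons use the same pair of libraries, so they share any library effect and are given side by side. No test is possible with 1 library per genotype.

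Dividing YAP5SA cells, pooled as CPM, carried more replication transcript than dividing control cells. The classes were not matched in how far they met the rule. Rule genes summed to 1385 CPM in YAP5SA, 762 CPM in control and 784 CPM in Yap knockout dividing cells. The part of this in the values below was not tested. Of the 42 replication genes, 40 were above 0 and 2 below (median 0.82), with sums of 2169 CPM in YAP5SA, 1101 CPM in the control and 969 CPM in the Yap knockout. In 0-marker cells 33 of 42 were above 0 (median 0.58). Rrm2 stood at 105 CPM in YAP5SA, 23.7 CPM in control and 15.7 CPM in Yap knockout dividing cells, 4.43-fold higher in YAP5SA than in the control (2.88 to 7.20). Mitosis genes were above 0 in 50 of 62 (median 0.50), and in 40 of 62 in 0-marker cells (median 0.09). Of the rule genes, Cdk1 stood at 193 CPM in YAP5SA and 63.2 CPM in control cells (3.05-fold), Ube2c at 468 and 221 CPM (2.12-fold, 1.83 to 2.46), while Mki67 stood at 92.2 and 80.2 CPM, with an interval of 0.9 to 1.49 for the ratio. Plk1 (71.4 and 83.6 CPM), Cdc20 (123 and 115 CPM) and Pclaf (73.4 CPM in both) were alike within counting error. Cdc20 and Pclaf turned below 0 once ratios were centred on the median of all genes, and Plk1 turned to 0.45 (log2) with a keratin minimum of 0.5%.

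Lists outside the cell cycle also differed between the libraries. Fetal genes were above 0 in 17 of 19 (median 1.80; 1.44 in 0-marker cells), inflammatory mediators in 14 of 16 (1.61; 1.87), glycolysis in 17 of 18 (1.27; 1.14) and YAP targets in 21 of 25 (0.79; 1.31). Msln stood at 1128 CPM in YAP5SA and 33.9 CPM in control dividing cells (33.3-fold, 23.3 to 49.4), and at 8.73 CPM in Yap knockout ones. The control value of Msln was near that of the control neuron gate (30.4 CPM). Ankrd1 had 0 UMIs in control dividing cells and was at least 25.9-fold higher in YAP5SA, and Ccn2 stood at 118 and 12.4 CPM (9.53-fold, 5.30 to 19.2). Ccn1 stood at 270 and 234 CPM (1.16-fold), and turned below 0 with a member minimum of 6 (log2 −0.14) or no keratin minimum (−0.06). Slc2a1 stood at 442 and 58.7 CPM, Wnt7b at 74.2 and 1.13 CPM (1 UMI in control cells), and Lcn2 at 227 and 3.39 CPM (3 UMIs; ratio 67.1, 22.9 to 326).

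The 10 highest genes outside the lists were Upk3bl, Clic3, S100a14, Krt4, Tinagl1, Eno3, Pdzk1ip1, Vnn1, Pdlim2 and Slc39a8. Upk3bl, a uroplakin relative, stood at 291 and 4.52 CPM (64.5-fold, 25.1 to 237), and Krt4, a keratin of stratified mucosa, at 310 and 10.2 CPM (30.5-fold, 16.0 to 66.8). Markers of other cell types also differed between these classes, with all 8 macrophage markers above 0 in YAP5SA (663 CPM in sum, against 210 CPM), all 9 fibroblast markers below 0 (3343 and 7747 CPM), all 7 neutrophil markers above 0 (260 and 50.8 CPM), and squamous markers at 395 and 38.4 CPM; their part was not tested.

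**Figure D5:**
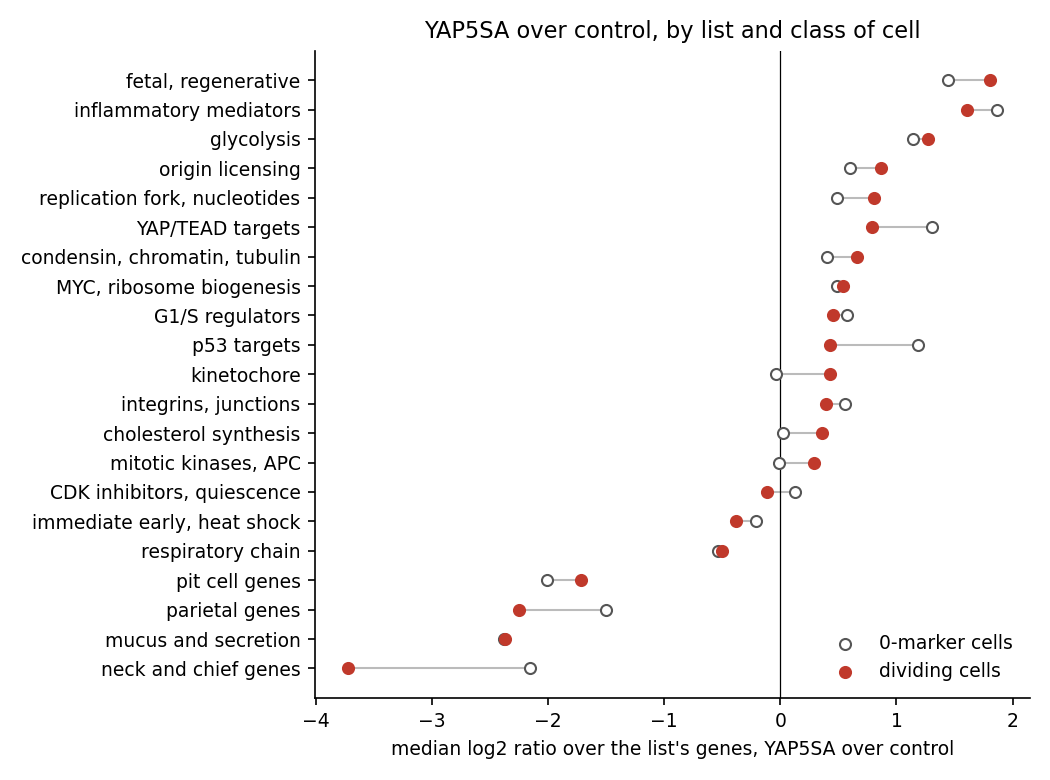
Median log2 ratio of YAP5SA over control (x, 5 CPM added) over all members of each list (y), for dividing cells (filled) and 0-marker cells (open). Fetal genes stand at 1.80 and 1.44, mucus genes at −2.37 in dividing cells, and replication genes at 0.82 and 0.58.

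Genes of gastric differentiation were lower in dividing YAP5SA than in dividing control cells. Of 40 gastric product genes 36 were below 0 and 2 above (median −2.33), and in 0-marker cells 39 were below 0 and 0 above (median −2.01). Pga5 stood at 27.2 CPM in YAP5SA, 17080 CPM in control and 27461 CPM in Yap knockout dividing cells. Tff1 stood at 53, 2332 and 7196 CPM, and Atp4a, the acid pump of parietal cells, at 0.813, 244 and 93.1 CPM. Neuron gates of the control and Yap knockout libraries held Pga5 at 382 and 572 CPM and Tff1 at 117 and 206 CPM, below the dividing epithelial cells of those libraries. Atp4a stood at 52.4 CPM in the Yap knockout neuron gate and 67.5 CPM in its 0-marker fibroblasts, near the 93.1 CPM of its dividing cells. Cym stood at 26999 CPM in YAP5SA and 52370 CPM in control cells (1.94-fold lower). Sox9, a progenitor factor, stood at 24.1 and 105 CPM, Lgr5, a stem cell receptor of the gastric gland base, at 0.677 CPM (5 UMIs) and 22.6 CPM, and Sox2, the foregut factor, at 23.3 and 18.1 CPM. Alb, or albumin, stood at 17.3 CPM with 0 UMIs in control dividing cells. The 10 lowest genes outside the lists were Tspan1 (2.44 and 178 CPM), Pdia2, Dmbt1, Gstm3, Lypd8, Tnni3, Gstm1, Cpn1, Gpx2 and Anxa10. Gstm1, a glutathione transferase, stood at 65.8 and 992 CPM (15.1-fold, 13.5 to 16.9), against 76.5 CPM in the neuron gate of the YAP5SA library.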

How the data were processed

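Single-cell 3′ libraries of 1 control, 1 YAP5SA and 1 Yap knockout hindstomach sample were analysed. The deposited values are counts, whole UMIs per gene and cell with no normalisation, written by PISA 1.0 per the file headers. STAR alignment and the GRCm39 genome come from the submitters' processing notes, while no source used here states a correction for free RNA. No cell in the files has fewer than 1000 UMIs. The members and gene lists were chosen with earlier results of these data known.

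The cells of a class were pooled and their UMIs scaled to CPM. Log2 ratios used a pseudocount of 5 CPM. Counts of differing genes took genes with at least 50 CPM in either class and a fold of 2 on that log2 scale. Folds printed for single genes were taken without the pseudocount, so they can be larger than the log2 ratio of the same gene. Their intervals are exact conditional 95% intervals of a pair of Poisson counts. A class with 0 UMIs was set to a floor of 3 UMIs over the class. Shares have Clopper-Pearson intervals. Intervals and floors cover counting error only. The genes that share reads with copies or neighbours cannot be separated. Counts over list members include all members found, and counts over those past 50 CPM support nothing.

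Named genes were each rule gene, up to 4 highest and 3 lowest passing members of a list, the 10 highest and 10 lowest genes outside all lists (predicted, ribosomal, mitochondrial, globin and sex-linked genes left out), and a fixed set. Other list members named in the text, such as Cldn6, Fos and Pgk1, were chosen after their values were seen. Scrublet in scanpy 1.11.5 called 0 doublets in each library at its own threshold, so it did not work here and no doublets were removed in the values given; removing the highest 6% of scores was an alternative. Alternatives also changed the depth, gate, member minimum, pseudocount, CPM minimum and scaling. The ratio script was tested on simulated counts. Versions were matplotlib 3.10.9, pandas 2.3.3, scipy 1.17.1 and numpy 2.4.6, under Python 3.11.15.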

Additional observations from a re-analysis of the deposited data

Results flagged for a closer look

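Ccn1, a YAP target, differed in direction between genotypes. Its log2 ratio of dividing over 0-marker cells was −0.63 in YAP5SA (420 CPM in 0-marker, 270 CPM in dividing cells) and 0.59 in the control (154 and 234 CPM). With 1 library per genotype the difference was not tested. Among YAP5SA cells of like depth the log2 ratio was 0.21.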

How the results depend on the processing

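No paired analysis was possible because each genotype has 1 library. The share of dividing cells (control, YAP5SA, Yap knockout) was 1.97%, 9.67% and 3.17% with gate and class both on cells thinned to 3000 UMIs, 22.0%, 36.5% and 22.5% with a member minimum of 3, and 5.90%, 13.9% and 5.67% with a minimum of 6. A keratin minimum of 0.5% gave 8.36%, 24.1% and 13.2% in the same order. No keratin minimum gave 17.5%, 24.5% and 15.0%, so the YAP5SA share stood less far above the others without that gate. With the gated cells above the 75th percentile of RNA of other types removed, a choice made after seeing the data, the YAP5SA share was 28%. The 66 higher genes against 0-marker cells became 167 (thinned), 107 (minimum 6), 100 (no keratin minimum), 151 (20 CPM minimum) and 223 (no CPM minimum). The 42 lower genes became 74 (thinned), 20 (minimum 3), 23 (pseudocount 20), 64 (20 CPM) and 95 (no CPM minimum). Higher and lower genes against dividing control cells became 184 and 167 with no keratin minimum, 722 and 480 at 20 CPM and 1087 and 744 with no CPM minimum. Centred on the median of all genes they were 286 and 347. The causes were not tested beyond the number of genes tested and cells kept. The replication median over passing genes lay between 1.00 and 1.41 in all alternatives run. Genes such as Rrm2 passed 50 CPM in the dividing class alone, so this range supports nothing. With no CPM minimum the replication median was 1.05. The YAP target median over passing genes lay between −0.31 and −0.036, the latter among cells of like depth. Sgk1 reversed there, to 0.27. Removing cells with 3 markers of another type was not run, since it left too few dividing cells, nor was the thinned comparison with the control, which had 4 dividing cells. Depth limits what can be read from list members under 50 CPM and from the control class of 45 cells.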
